A study of Mus musculus with 2 samples.

Results

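A set of 34 genes of double-strand break and replication repair was followed through the cells of a mouse tendon injury, with and without irradiation. The genes were taken from a list of names by role. That list and the lists set beside it were chosen with earlier results of these data known. All 34 genes were found among the 32285 genes of the deposited data. They comprise 5 break-sensing and checkpoint kinases, 5 genes of end joining, 6 of the chromatin response and pathway choice, 5 of end processing, 7 of homologous recombination, 3 of the Fanconi anemia pathway and 3 of strand break and mismatch repair. Single-cell RNA was read from 2 libraries of unsorted cells from the injured tendon of male C57BL/6 mice, 8 to 10 weeks old. All mice had a dorsal burn over 30% of the body surface together with Achilles tendon transection, an injury that leads to bone forming in soft tissue, and cells were collected on day 7. The control library came from mice with this injury alone. In the irradiated library the injury site had also been exposed to 7 Gy of X-rays, given once and limited by a collimator. The series text points to postoperative day 3 for the dose in wording that leaves the day uncertain, and the number of mice in each library is not stated in the sources used here. With 1 library in each group, irradiation and library cannot be told apart, no test between groups was possible, and every interval below covers counting error only.

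A double-strand break can be closed along different routes. End joining binds the raw ends (Xrcc5 and Xrcc6, the Ku proteins) and ligates them (Lig4 with Xrcc4 and Nhej1), and it can act at any point of the cell cycle. Homologous recombination trims the ends (Mre11a, Rad50, Nbn, Rbbp8, Exo1) and copies the sister chromatid with the help of Brca1, Bard1, Palb2, Brca2 and Rad54l, which requires replicated DNA. The Fanconi anemia proteins release forks stalled at crosslinks, and Atm, Atr, Chek1 and Chek2 signal damage and hold the cell cycle. Many genes of replication and recombination are transcribed in cycling cells under E2F factors, so the levels below were read both with dividing cells and without them.

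The promoters are shown because the members fell into genes that went with dividing cells and genes that did not. RefSeq windows (GRCm38.p6, 250 bases before to 50 bases after the gene start) were given for 26 of the 34 members. Of these, 5 follow, 5′ to 3′ on the strand of the gene: 3 with a match to an E2F form (Brca2 at chr5:150522371-150522670 on the plus strand, Bard1 at chr1:71102923-71103222 on the minus strand, Chek2 at chr5:110839733-110840032 on the plus strand), Brca1 (chr11:101551906-101552205, minus strand), which goes with dividing cells and has no match, and Xrcc4 (chr13:90089559-90089858, minus strand), an end joining gene at one level in dividing and other cells. Capitals mark E2F forms and, in Bard1, also the cell cycle element TTTGAA at base 9.
Brca2: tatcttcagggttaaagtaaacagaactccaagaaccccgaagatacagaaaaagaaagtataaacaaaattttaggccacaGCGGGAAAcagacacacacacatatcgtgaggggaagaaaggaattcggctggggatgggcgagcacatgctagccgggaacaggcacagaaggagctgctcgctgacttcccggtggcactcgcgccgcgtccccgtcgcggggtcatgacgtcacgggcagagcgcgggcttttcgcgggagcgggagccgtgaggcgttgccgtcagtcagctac
Bard1: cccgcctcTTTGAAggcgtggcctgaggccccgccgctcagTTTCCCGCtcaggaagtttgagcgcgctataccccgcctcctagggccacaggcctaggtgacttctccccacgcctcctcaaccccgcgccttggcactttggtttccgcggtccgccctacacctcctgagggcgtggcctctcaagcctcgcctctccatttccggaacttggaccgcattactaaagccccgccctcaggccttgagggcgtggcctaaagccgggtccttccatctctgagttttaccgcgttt
Chek2: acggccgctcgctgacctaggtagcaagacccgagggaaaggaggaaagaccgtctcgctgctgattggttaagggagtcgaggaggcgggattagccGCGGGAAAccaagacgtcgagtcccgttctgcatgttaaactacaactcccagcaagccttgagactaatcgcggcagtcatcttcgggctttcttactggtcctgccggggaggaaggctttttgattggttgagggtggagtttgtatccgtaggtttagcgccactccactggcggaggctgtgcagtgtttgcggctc
Brca1: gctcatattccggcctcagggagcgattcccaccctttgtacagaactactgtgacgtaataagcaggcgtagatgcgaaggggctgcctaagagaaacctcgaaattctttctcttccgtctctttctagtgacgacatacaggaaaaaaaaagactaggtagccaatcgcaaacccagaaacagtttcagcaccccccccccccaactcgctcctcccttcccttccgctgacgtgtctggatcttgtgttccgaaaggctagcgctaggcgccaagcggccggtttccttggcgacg
Xrcc4: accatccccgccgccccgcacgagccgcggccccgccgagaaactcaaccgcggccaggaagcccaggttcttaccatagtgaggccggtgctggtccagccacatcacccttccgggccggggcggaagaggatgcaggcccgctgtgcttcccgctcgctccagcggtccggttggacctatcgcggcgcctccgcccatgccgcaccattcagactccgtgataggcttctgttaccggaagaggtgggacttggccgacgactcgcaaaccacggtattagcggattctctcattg
The E2F forms searched were TTTCCCGC, TTTCGCGC, TTTGCCGC and TTTGGCGC on both strands. They were present in 6 of 26 members (23.1%), namely Xrcc6 (first base 205), Brca2 (83), Bard1 (42), Mdc1 (235), Chek2 (99) and Msh6 (266). A member counted with a match in any of its windows. Of all 32851 windows of the same length 2.26% had a match, and of the 21263 windows of coding genes 2.85%. The element TTTGAA was present in 2 of 26 (7.69%), Bard1 and Rnf8, against 17.9% of all windows and 16% of coding windows. The letters CCAAT were present in 14 of 26 (53.8%) against 37.4% of all windows and 38.2% of coding windows. A match is a description of letters in this window, not a binding site.

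Cells were grouped by marker genes into classes, each named with the ending "-like". The 8 classes with at least 100 cells in both libraries were compared. They held 2344 control and 637 irradiated mesenchymal-like cells (fibroblast and tendon markers), 2147 and 1271 keratinocyte-like, 1482 and 2322 macrophage and monocyte-like, 509 and 311 endothelial-like, 805 and 1228 neutrophil-like, 274 and 180 pericyte and smooth muscle-like, 142 and 254 T and NK-like, and 102 and 130 Schwann-like cells. The labels call the tissue tendon injury, and the 23 fibroblast and tendon markers summed to 62965 and 72885 CPM, a scaled count, in the mesenchymal-like cells. Kept cells had a median of 13261 UMIs (unique molecules counted) in the control library and 10075 in the other, and the libraries shared 21 cell barcodes among kept cells. The levels are CPM, the UMIs of a gene summed over the cells of a class and scaled to the summed UMIs of that class.

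The members had a broad distribution over cell classes, with the lowest levels in neutrophil-like cells. Of the 34 members, 25 were lowest in that class among control cells and 28 among irradiated cells. Parp1, which senses strand breaks, was at 1.36 and 1.12 CPM in neutrophil-like cells (control and irradiated, in this order throughout) and highest in macrophage and monocyte-like cells at 54.6 and 49.6 CPM. Rif1, which shields broken ends from trimming, was highest in T and NK-like cells at 98.4 and 90.3 CPM, followed by keratinocyte-like cells at 67.9 and 66.8 CPM, and was 4.53 and 4.68 CPM in neutrophil-like cells. The kinase genes Atm (0.453 and 2.25 CPM) and Prkdc (0.905 and 1.31 CPM) were also low in neutrophil-like cells. Neutrophil-like cells are shallow, with median totals of 2074 and 3078 UMIs, and 15 of the 34 members reached the 20 UMIs over both libraries needed for a ratio.

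The end joining genes differed from one another in their order over classes. Xrcc5, the larger Ku subunit, was highest in Schwann-like cells at 45.0 and 44.2 CPM and second in keratinocyte-like cells at 29.3 and 26.9 CPM. In macrophage and monocyte-like cells the same gene was at 1.63 and 0.626 CPM. Xrcc4, the partner of the ligase, had another order, with endothelial-like cells at 57.0 and 47.9 CPM, Schwann-like cells next to them at 53.4 and 47.8 CPM, and neutrophil-like cells at 46.6 and 28.5 CPM. Rbbp8 (CtIP), which starts end trimming, was the member with the most UMIs and had no low class: its control levels ranged from 60.5 to 128 CPM and its irradiated levels from 52.0 to 158 CPM. In both libraries T and NK-like cells were highest for Rbbp8 and keratinocyte-like cells second.

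**Figure D1:**
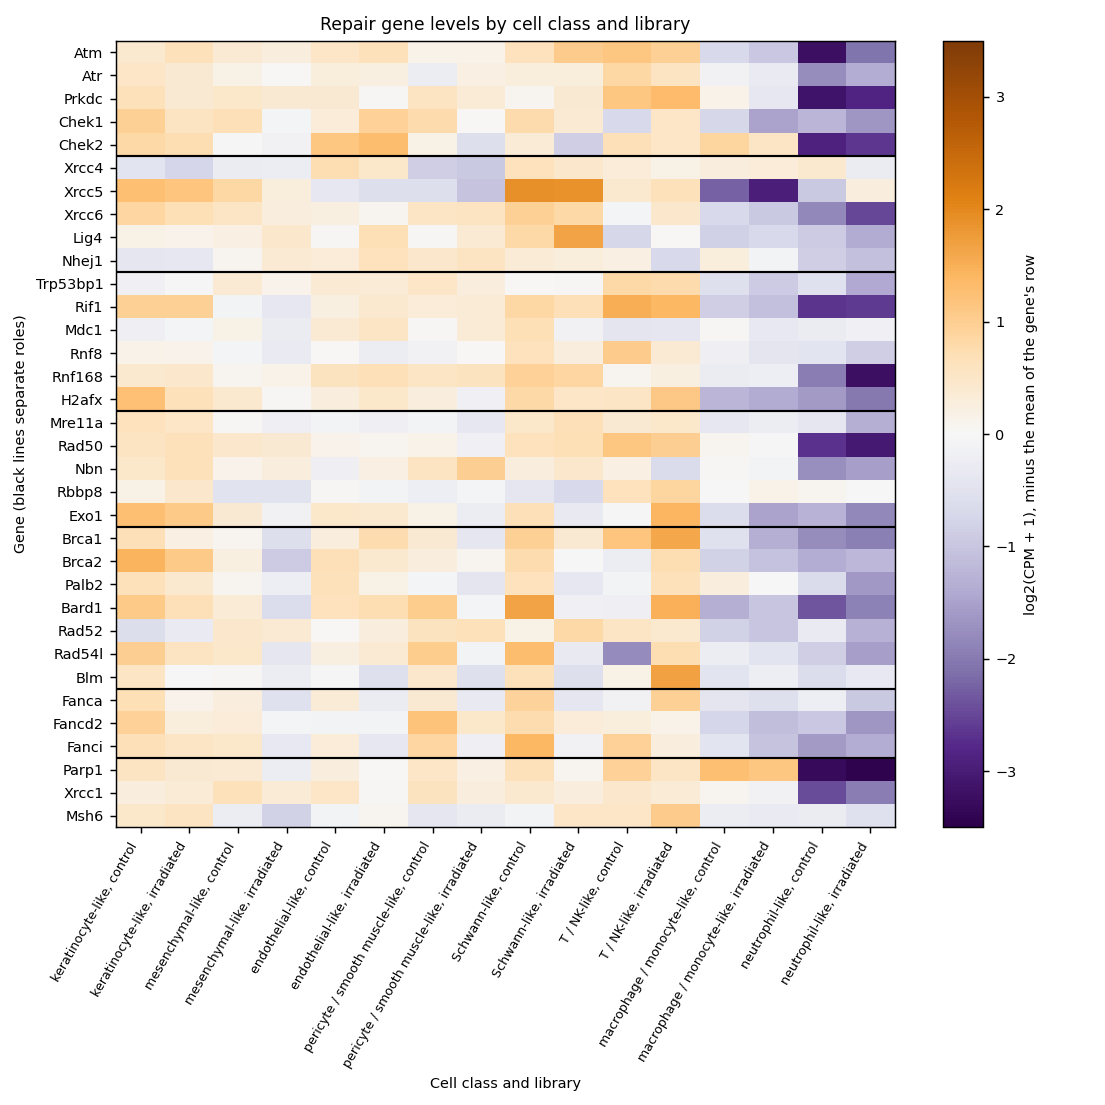
Level of each member in the 8 cell classes and 2 libraries, as log2(CPM + 1) minus the mean of that gene's row, so colours compare classes within a gene and not genes with each other. The neutrophil-like columns hold the darkest purple for most genes, while Xrcc4, Rbbp8 and Mdc1 are near their row mean there; Xrcc5 is lowest in the macrophage and monocyte-like columns.

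Shares of cells with a UMI gave the same order for Parp1 among cells thinned to 2000 UMIs. Shallower cells were left out, 56 and 54 of the macrophage and monocyte-like cells and 372 and 166 of the neutrophil-like cells, so the latter shares describe the deeper cells. At that depth 10.7% and 9.08% of macrophage and monocyte-like cells had a Parp1 UMI, against 0.462% and 0.282% of neutrophil-like cells (33.5% and 33.3% against 0.373% and 0.489% of all cells before thinning). Brca1 was found in 0.231% and 0.0942% of thinned neutrophil-like cells, from 1 cell in each library, and in 1.27% and 0.649% of mesenchymal-like cells. For the latter pair the exact binomial 95% intervals, 0.851 to 1.82% and 0.177 to 1.65%, overlap. The neutrophil-like shares are not a clean background for Brca1. At that depth 2.08% and 0.2825% of those cells had a UMI of Top2a, a gene of dividing cells.

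Dividing cells held a large part of the repair transcripts. Cells with at least 2 UMIs of Top2a, a topoisomerase made in dividing cells, were 12.1% of control and 5.69% of irradiated kept cells. They held 24.9% and 16.9% of all UMIs and 42.2% and 31.5% of the UMIs of the 34 members. These shares are over all kept cells, and the mix of classes differed between the libraries. Mesenchymal-like cells numbered 2344 and 637, and macrophage and monocyte-like cells, with few Top2a cells, 1482 and 2322. The part of this mix in the shares was not tested. The share differed by gene: 86.3% and 87.7% of Exo1 UMIs, 83.6% and 81.1% of Brca1 UMIs, and 70.4% and 65.4% of H2afx UMIs lay in these cells, against 23.6% and 12.7% of Xrcc4 UMIs and 20.3% and 16.8% of Rad52 UMIs.

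Within a class and library, dividing cells were set against the other cells in the 4 pairs with at least 50 cells on each side: mesenchymal-like control, keratinocyte-like control, keratinocyte-like irradiated and endothelial-like control. A member was called higher or lower when it differed by at least 1.5-fold and the exact Poisson 95% interval of the ratio left out equality. Called higher in dividing cells were 23, 22, 20 and 26 of the 34 members in these pairs, where 9.17%, 14.2%, 16.3% and 11.5% of all genes tested were. No member was lower in any pair, where 7.74%, 14.7%, 16.3% and 10.6% of all genes were. The members' median log2 ratios were 0.98, 0.82, 0.70 and 0.98, and those of all genes were -0.02, 0.03, -0.01 and -0.02. Dividing cells were also deeper in each pair. Their medians were 36597, 36964, 44180 and 29927 UMIs, against 24326, 17611, 22550 and 13892 in the other cells.

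Most recombination genes and all 3 Fanconi genes were higher in dividing cells. Brca1, which directs ends into recombination, was at 35.8 CPM in dividing and 2.06 CPM in other mesenchymal-like control cells, and its log2 ratio ranged from 4.04 to 5.08 over the 4 pairs. Its partner Bard1 ranged from 2.95 to 3.64, the motor protein Rad54l from 3.85 to 4.40, and the helicase Blm from 2.61 to 3.23. Fanca (2.62 to 4.0), Fancd2 (2.83 to 3.91) and Fanci (2.84 to 3.48) were alike in range. All 3 Fanconi genes and 6 of the 7 recombination genes were higher in every pair. Brca2, which acts in strand exchange, and Palb2, which brings Brca2 to Brca1, had smaller ratios, 1.45 to 2.80 and 1.19 to 2.53. Rad52 was the recombination gene that was not called in any pair, with ratios from -0.69 to 0.02.

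The other roles were split. Of the end-processing genes the nuclease Exo1 (3.83 to 4.82) stood with the recombination genes, the Mre11a, Rad50 and Nbn complex was higher in all 4 pairs by smaller ratios (0.97 to 1.31, 0.76 to 0.96 and 0.62 to 1.21), and Rbbp8 lay between -0.10 and 0.62. Among chromatin genes H2afx, the histone marked at breaks, ranged from 2.40 to 3.17 and Rif1 from 0.80 to 0.97, whereas Trp53bp1, which favours end joining, ranged from -0.39 to 0.21. The checkpoint kinases Chek1 (1.82 to 2.65) and Chek2 (1.42 to 2.24) were higher in all pairs. Atm was higher in 3 of the 4 pairs and Atr and Prkdc in 1 each. Of the 5 end joining genes, Xrcc4, Xrcc5, Lig4 and Nhej1 were called in no pair, and Xrcc6 in 3. Of the strand break and mismatch genes, Parp1 was higher in all 4 pairs (0.93 to 1.47), Msh6 in 3 and Xrcc1 in 2. Parp1 was at 47.5 CPM in dividing and 23.6 CPM in other mesenchymal-like control cells.

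**Figure D2:**
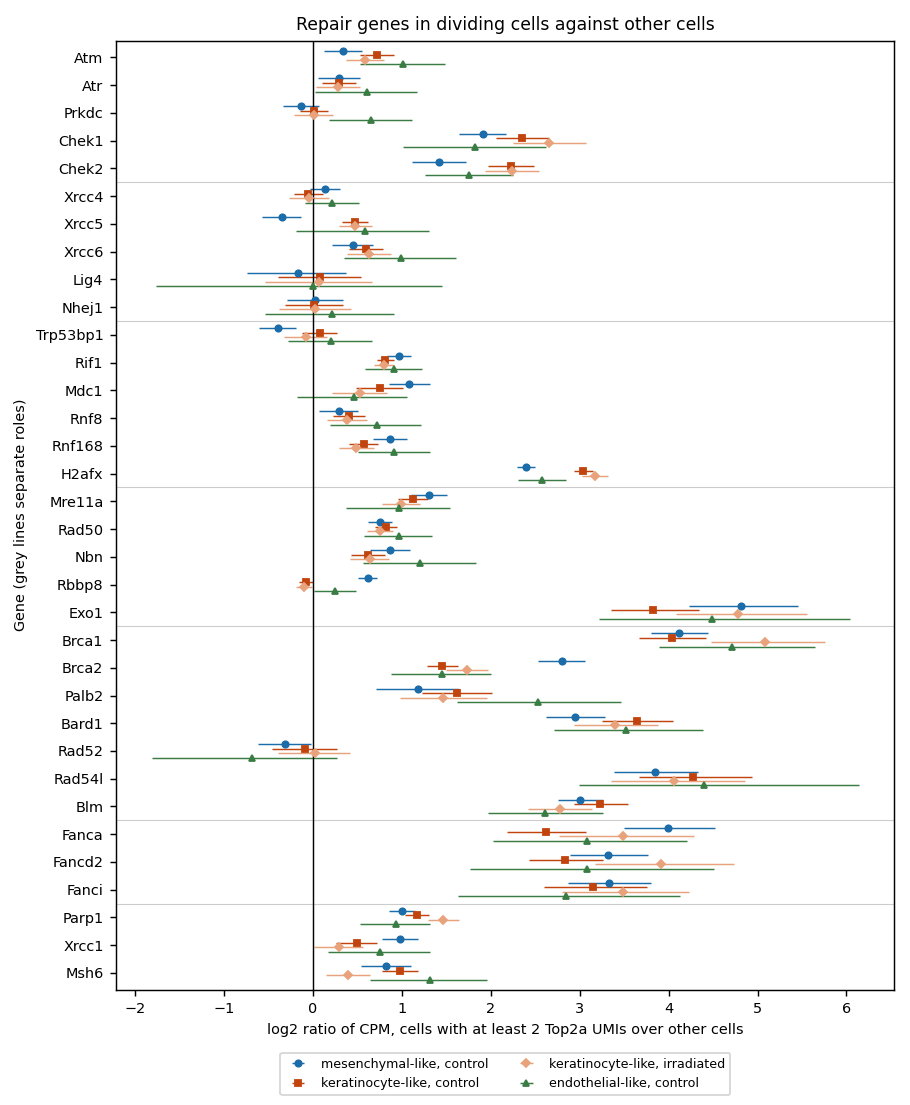
Log2 ratio of CPM in cells with at least 2 Top2a UMIs over other cells, for each member in 4 class and library pairs, with exact Poisson 95% intervals that cover counting error only. Exo1, Brca1, Bard1, Rad54l, Blm and the Fanconi genes lie between 2.61 and 5.08, while Xrcc4, Lig4, Nhej1, Trp53bp1 and Rad52 lie between -0.69 and 0.22.

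In all, 18 members were higher in every pair, 10 in 1 to 3 pairs and 6 in none. An E2F form was present in 3 of the 12 windows of the first set (the Brca2, Bard1 and Chek2 promoters printed above), in 3 of 8 of the second (Xrcc6, Mdc1 and Msh6) and in 0 of 6 of the third. The Brca1 window, printed above without a capital, belongs to the first set. Of 64 other repair genes chosen by role, 39 were higher in dividing cells in the mesenchymal-like pair and 42 and 43 in the keratinocyte-like pairs. In the endothelial-like pair 33 of 59 with enough UMIs were higher. All 20 mitosis genes and all 20 DNA synthesis genes were higher in each pair. The mitosis list includes Top2a, by which dividing cells were defined, so the call of that gene was fixed by the rule.

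In irradiated mesenchymal-like cells Brca1, Brca2, Bard1, Rad54l, Fanca, Fanci, Chek1, Parp1, Exo1 and Msh6 were lower than in control cells. These 10 of 34 members were lower and 0 higher, where 7.12% of all genes tested in the class were lower and 11.9% higher. The members' median log2 ratio (irradiated over control) was -0.30 against -0.04 for all genes, and 29 of 34 ratios were below 0. Over the list, 535.6 CPM in the control stood against 452.7 CPM in the irradiated cells.

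By role, 4 of 7 recombination genes (median -0.72), 2 of 3 Fanconi genes (-1.10) and 2 of 3 strand break and mismatch genes (-0.62) were lower. Brca2 was at 8.68 CPM in control and 3.36 CPM in irradiated cells, a log2 ratio of -1.37 (95% interval -1.79 to -0.97). Bard1 was at 5.56 and 2.40 CPM (-1.21, -1.72 to -0.73), Rad54l at 3.83 and 1.62 CPM (-1.24, -1.87 to -0.66) and Brca1 at 8.90 and 5.41 CPM (-0.72, -1.06 to -0.39). Recombination was thus not lower throughout its list, since Palb2, Rad52 and Blm were not called. Fanca (3.49 and 1.62 CPM) and Fanci (3.21 and 1.38 CPM) were the lower Fanconi genes. The strand break sensor Parp1 was at 28.5 and 18.6 CPM (-0.62, -0.80 to -0.44) and Msh6, which recognises mismatches, at 8.25 and 5.23 CPM (-0.66).

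Of the remaining members, Chek1 (7.78 and 4.26 CPM, -0.87) and Exo1 (3.62 and 2.22 CPM, -0.70) were lower. None of the 5 end joining genes was called (median 0.03) and none of the 6 chromatin genes (median -0.28). Xrcc5, at 21.1 and 14.1 CPM, lay just inside the 1.5-fold limit. Nbn, Rbbp8, Rad50 and the kinases other than Chek1 had no call.

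The share of dividing cells differed in the same class. Top2a cells were 14.0% of the control cells of this class (95% interval 12.6 to 15.4%) and 6.59% of irradiated ones (4.79 to 8.81%), or 6.61% and 3.25% when cells were thinned to 2000 UMIs and 1 Top2a UMI counted (58 and 21 shallower cells left out). Of the mitosis list 9 of 20 genes were lower and of the DNA synthesis list 8 of 20. Median depth was 25507 and 22940 UMIs.

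With the Top2a cells left out, 6 members were lower and 0 higher (6.8% and 12% of all genes), and the median was -0.23 against -0.03. Brca2 (3.94 and 2.21 CPM, -0.83), Bard1 (2.35 and 0.968 CPM, -1.28), Chek1 (4.99 and 2.77 CPM, -0.85) and Parp1 (23.6 and 15.1 CPM, -0.65) were lower both with and without these cells. Xrcc5 (22.1 and 13.7 CPM, -0.69) and Palb2 (2.25 and 1.31 CPM, -0.77) were called only without them. Brca1, Rad54l, Fanca, Fanci, Exo1 and Msh6 were called only with them. In the remaining cells Rad54l was at 1.03 and 0.553 CPM (-0.90, -2.19 to 0.19, from 50 and 8 UMIs) and Msh6 at 7.13 and 4.91 CPM (-0.54, -0.93 to -0.17), just inside the 1.5-fold limit. The ratios of Brca1 (-0.31), Fanca (-0.48) and Fanci (-0.45) were smaller than with all cells, each with an interval that spans 0, and that of Exo1 was 0.58 (-0.54 to 1.61). The median of the recombination genes was -0.77 without Top2a cells. Some dividing cells without 2 Top2a UMIs stay among the remaining cells: the mitosis list there, which includes Top2a, summed to 131 and 82.6 CPM.

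The ratio of Parp1 was nearly equal with and without dividing cells, and it was below 0 in each of the 4 mesenchymal-like clusters with cells enough to compare. Its log2 ratios were -0.65 in cluster 3 (led by Pdzrn4 and Ptx3) and -0.56 in cluster 6 (Crabp1 and Acta2). They were -0.48 in cluster 8 (Clec3b and Pi16) and -0.65 in cluster 13 (Tnmd and Kera). Each interval left out equality, but the ratios in clusters 6 and 8 were inside the 1.5-fold limit. Brca2 was also below 0 in all 4, at -0.97, -1.11, -1.59 and -0.84. Chek1 was not alike over clusters, with -1.03, -0.44, 0.36 and -1.27. These clusters made up different parts of the class: cluster 3 was 39.2% of the class in the control and 9.58% after irradiation, and cluster 8 was 14.0% and 50.1%. Top2a cells were 10.0% and 9.84% of cluster 3 and 25.2% and 13.2% of cluster 6. They were 6.40% and 3.135% of cluster 8 and 11.2% and 9.91% of cluster 13. Within clusters 3, 6, 8 and 13, 6 of 34, 7 of 34, 6 of 30 and 4 of 34 members were lower, where 8.38%, 6.61%, 6.62% and 6.63% of all genes were. A single member was higher, in cluster 13 (1 of 34), where 7.26%, 9.66%, 6.41% and 7.3% of all genes were higher in the 4 clusters. With each cell thinned to 2000 UMIs the ratio of Parp1 in the class was -1.50 and that of Brca2 was -3.28, the latter with 1 irradiated cell of 616 holding a UMI, while the ratio of Msh6 was -0.24 and inside the limit.

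**Figure D3:**
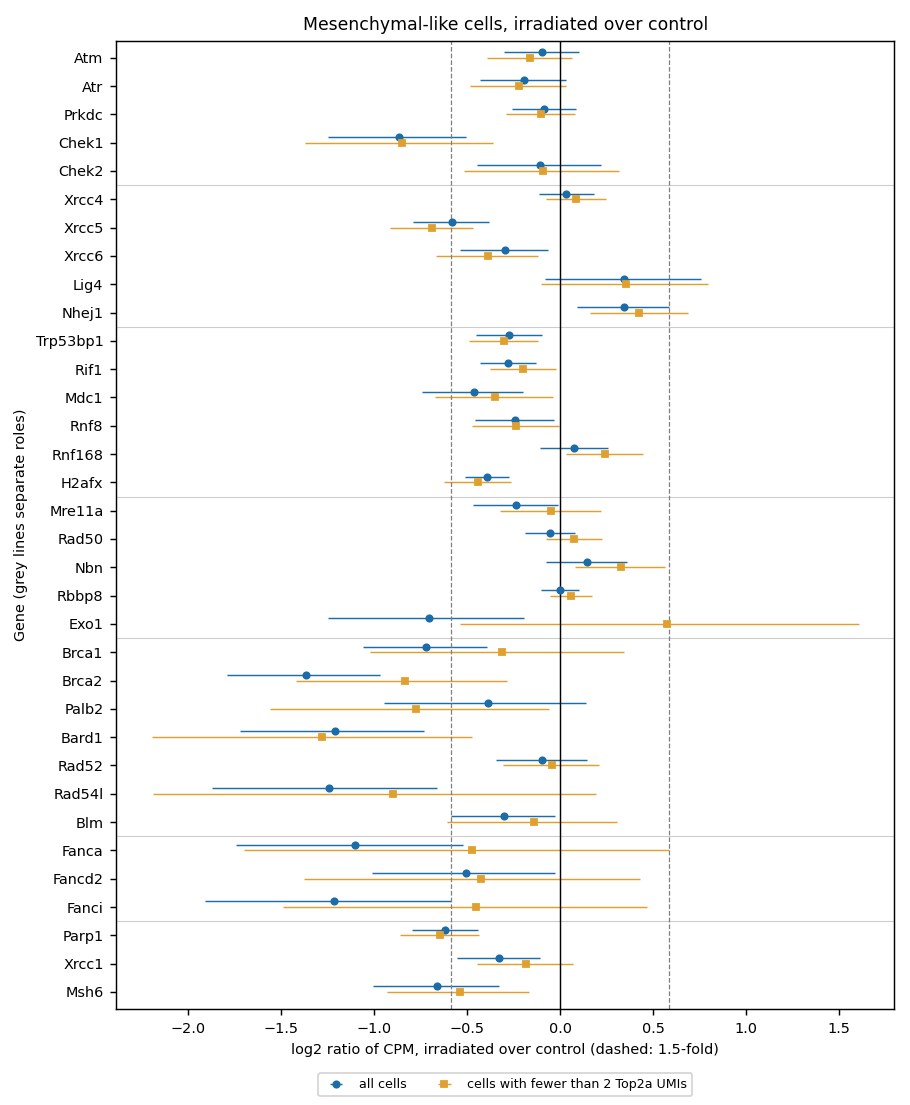
Log2 ratio of CPM, irradiated over control, for the 34 members in mesenchymal-like cells, with all cells and without cells that have at least 2 Top2a UMIs; bars are exact Poisson 95% intervals (counting error only) and dashed lines mark 1.5-fold. Parp1, Bard1, Chek1 and Brca2 lie left of the dashed line in both sets, while Fanca and Fanci do so only with all cells.

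Among the dividing mesenchymal-like cells themselves (327 control and 42 irradiated, under the minimum of 50 set for this comparison and so given after that was seen), 7 of 34 members were lower and 0 higher, where 6.99% and 6.87% of all genes were. The 7 were Brca2 (27.4 and 10.96 CPM, -1.32), Fanci (11.4 and 5.02 CPM, -1.18), Bard1, Rad52, Rad54l, Fanca and Msh6. The median was -0.24 against -0.06. Irradiated counts were small, from 11 UMIs for Fanci and Rad52 to 26 for Bard1.

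Other repair genes had the same direction in this class. Of the 64 genes, 13 were lower and 0 higher (20.3% and 0%, where 7.12% and 11.9% of all genes were, median -0.31). Among those with the most UMIs were Hells (29.6 and 19.3 CPM), a chromatin remodeller, Lig1 (25.6 and 13.6 CPM), the replication ligase, Uhrf1 (20.6 and 11.9 CPM), and Clspn (17.4 and 9.43 CPM), an activator of Chek1. Without Top2a cells 6 were lower and 1 higher (9.38% and 1.56%, where 6.8% and 12% of all genes were, median -0.15). The share lower was then near that of all genes. A list of p53 targets ran the other way with all cells: 11 of 22 were higher and 0 lower, where 11.9% and 7.12% of all genes were. Among them Cdkn1a, an inhibitor of the cell cycle, was at 36.9 and 343 CPM. Markers of other cell types differed too. The 18 macrophage markers summed to 128.6 and 302.9 CPM in mesenchymal-like cells, each higher in the irradiated library, and the 12 neutrophil markers to 93.6 and 204 CPM, none of either list at 0. Their part in the ratios was not tested.

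Keratinocyte-like cells, the class with the largest share of dividing cells, had 4 of 34 members lower and 0 higher, where 8.52% and 6.75% of all genes were. The median was -0.13 against -0.03. H2afx was at 97.2 and 63.2 CPM (-0.62, -0.69 to -0.55), Fancd2 at 6.22 and 3.55 CPM (-0.81), Fanca at 5.06 and 3.09 CPM (-0.71) and Blm at 14.2 and 9.39 CPM (-0.59). Top2a cells were 25.9% of control and 19.3% of irradiated keratinocyte-like cells. The H2afx ratio was -0.42, inside the 1.5-fold limit, when the clusters of the class were given equal weights in both libraries. Keratinocyte-like cells hold mesenchymal marker transcripts at 1257 and 462.8 CPM, and their part in these ratios was not tested.

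This class had enough dividing cells in both libraries, 555 and 245, to compare within them. No member was higher or lower there, where 5.63% and 7.11% of all genes were, and the median was -0.08. Brca2 was at 34.7 and 31.3 CPM, with a log2 ratio of -0.15 (-0.33 to 0.03). Parp1 was at 49.8 and 51.2 CPM, with a ratio of 0.04 (-0.10 to 0.18). Each of these intervals lies inside 1.5-fold. The members lower in the whole class also had ratios below 0 in the dividing cells, inside the 1.5-fold limit. They were H2afx (-0.37, -0.44 to -0.29), Blm (-0.45, -0.66 to -0.25), Fancd2 (-0.40, -0.72 to -0.09) and Fanca (-0.33, -0.68 to 0.02). All of these intervals but that of Fanca left out equality. Over the list, 19 of 34 ratios were below 0 in dividing cells. Among the other keratinocyte-like cells 3 members were lower and 0 higher (9.17% and 7.08% of all genes): Brca1 (1.99 and 0.876 CPM, -1.19), Fanca (1.66 and 0.724 CPM, -1.20) and Fancd2 (1.81 and 0.647 CPM, -1.49). The median was -0.02. With cells thinned to 2000 UMIs the ratio of Brca1 in these other cells was -0.09, and that of Blm in the whole class was -0.17.

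The clusters of the class were also compared with and without dividing cells. In cluster 7, where 46.2% and 46.1% of cells were Top2a cells, 0 of 34 members were lower or higher (7.09% and 4.86% of all genes), and without Top2a cells 5 of 33 were lower and 0 higher (8.95% and 6.06%). In clusters 10, 11 and 15, 10, 9 and 9 of 34 were lower (10.9%, 9.84% and 9.1% of all genes) and none higher (5.65%, 3.89% and 6.39%), with medians of -0.39, -0.28 and -0.24. Without Top2a cells 4 of 26, 4 of 28 and 2 of 26 were lower there (9.61%, 9.58% and 7%) and none higher (5.52%, 5.08% and 4.88%). Top2a cells were 7.02% and 8.26% of cluster 9 and 8.09% and 6.30% of cluster 19. In clusters 9 and 19, 1 of 27 and 5 of 28 were lower with all cells (10.3% and 8.16%) and none higher (4.48% and 5.3%). Without Top2a cells 0 of 26 were lower or higher in cluster 9 (8.79% and 4.54%), and of 23 in cluster 19, 1 was lower and 1 higher (8.12% and 6.29%). Fewer members had enough UMIs without these cells in all 6 clusters. The difference between clusters was not tested.

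**Figure D4:**
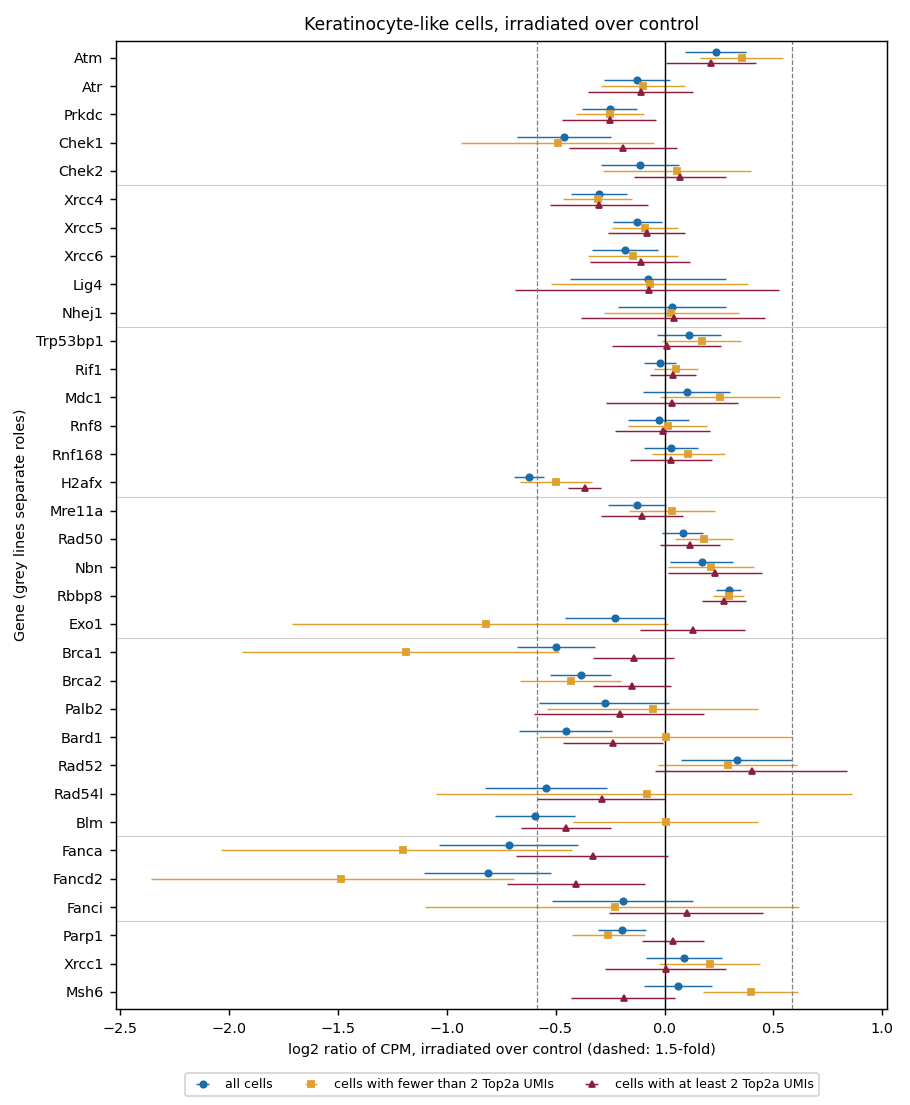
Log2 ratio of CPM, irradiated over control, for the members in keratinocyte-like cells, with all cells, without Top2a cells and within Top2a cells; bars are exact Poisson 95% intervals (counting error only) and dashed lines mark 1.5-fold. No point of the dividing cells lies outside the dashed lines, while Brca1, Fanca and Fancd2 of the other cells lie left of them, as does Exo1 with an interval that reaches 0.

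In macrophage and monocyte-like cells, of which 1.42% and 0.775% were Top2a cells, 5 of 34 members were lower and 0 higher, where 12.8% and 6.8% of all genes were. The median was -0.26 against -0.12. Brca1 was at 5.73 and 2.80 CPM, Chek1 at 2.32 and 0.960 CPM, Xrcc5 at 1.63 and 0.626 CPM, Fanci at 1.24 and 0.501 CPM and Exo1 at 1.32 and 0.25 CPM. The last rests on 17 and 6 UMIs. Without Top2a cells Prkdc (17.8 and 11.7 CPM), Xrcc5, Brca1 and Chek1 were lower and Bard1 (0.557 and 1.39 CPM, from 7 and 33 UMIs) was higher, where 12.1% and 6.76% of all genes were. Exo1 then had too few UMIs for a ratio, and Fanci (12 and 9 UMIs) had no call. Cluster 1 was 10.3% of control and 53.1% of irradiated cells of this class and cluster 2 was 63.7% and 18.6%. With clusters weighted alike the ratio of Brca1 was -0.53, inside the 1.5-fold limit, in place of -1.03. Within clusters 1, 2, 12 and 14, 0 of 28, 4 of 29, 1 of 19 and 0 of 20 members were lower. Of all genes 4.68%, 6.32%, 4.91% and 4.56% were lower there. No member was higher, where 3.2%, 5.09%, 3.63% and 5.96% of all genes were. Clusters 1 and 14 held only 153 and 56 control cells. In this class the 23 mesenchymal markers summed to 550.7 and 136.9 CPM (0 higher), the 22 keratinocyte markers to 759.1 and 223.8 CPM and the 5 red cell markers to 18.6 and 422.7 CPM, and their part in the calls was not tested.

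Endothelial-like cells had 2 members higher and 0 lower, where 8.28% and 4.32% of all genes were, and a median of -0.03. Chek1 was at 5.91 and 9.54 CPM (0.69, 0.11 to 1.27), and Lig4, the end joining ligase, at 2.69 and 4.86 CPM with an interval that touches 0. Without Top2a cells Nbn (7.95 and 14.0 CPM) and Chek2 (10.4 and 16.4 CPM) were higher and Brca2 (9.10 and 4.59 CPM) was lower, where 8.34% and 5.39% of all genes were. The mesenchymal markers summed to 1083 and 297.1 CPM in this class and the neutrophil markers to 89.2 and 402.4 CPM, and their part was not tested. Among the dividing cells of this class (54 and 22, also under the minimum), Chek1 was higher (14.1 and 26.9 CPM) and Prkdc, Xrcc4, Palb2 and Chek2 were lower, of 31 members with enough UMIs, where 5.88% and 6.21% of all genes were. In the class as a whole 17 of 22 p53 targets were higher, with Cdkn1a at 106 and 576 CPM.

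Pericyte and smooth muscle-like cells had 6 of 33 members lower and 0 higher, where 6.21% and 7.35% of all genes were, and a median of -0.26 against -0.03. These were Blm (13.2 and 6.21 CPM), Brca1 (11.6 and 6.21 CPM), Bard1 (9.55 and 3.95 CPM), Chek1 (8.42 and 4.52 CPM), Rad54l (6.14 and 2.26 CPM) and Fanci (4.55 and 1.69 CPM). All 6 belong to the members higher in dividing cells in each pair. Top2a cells were 13.5% (interval 9.69 to 18.1%) and 8.33% (4.74 to 13.4%) of this class before thinning. After thinning the shares were 5.19% (2.86 to 8.55%) and 5.68% (2.76 to 10.2%), with 4 and 4 shallower cells left out. The intervals of the libraries overlap both before and after thinning, so no difference in the share of dividing cells is read in this class. Without Top2a cells 24 members had enough UMIs, of which Blm was lower and none was higher (5.97% and 7.39% of all genes). Of the other 5, 4 (Bard1, Rad54l, Fanci and Chek1) had too few UMIs for a ratio there, and Brca1 had a ratio of -1.03 from 14 and 6 UMIs with no call. The 23 mesenchymal markers summed to 14392 and 13147 CPM in this class (10 higher). Its own 10 pericyte and smooth muscle markers summed to less, 9473 and 8322 CPM. The 12 neutrophil markers summed to 157.4 and 573.9 CPM, all 12 higher in the irradiated library. The 18 macrophage markers summed to 137.8 and 240.4 CPM (17 higher) and the 22 keratinocyte markers to 602.6 and 256.7 CPM (2 higher). The part of other cell types' markers in the calls was not tested.

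The smaller classes rest on few UMIs. Schwann-like cells had 2 of 27 members lower, Bard1 (15.3 and 3.63 CPM, from 20 and 6 UMIs) and Blm (15.3 and 6.05 CPM), and 0 higher, where 7.77% and 6.73% of all genes were. Without Top2a cells both had too few UMIs for a ratio, and Msh6 (5.03 and 14.2 CPM) was higher, where 7% of all genes were lower and 6.72% higher. In this class the 23 mesenchymal markers summed to 6698 and 2876 CPM, beside 5794 and 9420 CPM for the 9 Schwann markers, and the 18 macrophage markers to 82.4 and 593.7 CPM. T and NK-like cells had 3 of 25 higher and 0 lower, where 5.83% and 9.11% of all genes were: Bard1 (3.60 and 13.6 CPM, from 3 and 26 UMIs), Blm (10.8 and 32.5 CPM) and H2afx (58.8 and 88.2 CPM). Top2a cells were 7.04% and 12.2% of T and NK-like cells before thinning and 10.4% and 8.30% after it (17 and 13 shallower cells left out). Without them Bard1 had too few UMIs for a ratio, Blm and H2afx had no call, and Rnf8, a ubiquitin ligase at breaks, was lower (38.7 and 16.7 CPM), where 7.77% of all genes were lower and 5.25% higher. The macrophage markers summed to 1854 and 746.5 CPM in T and NK-like cells and the keratinocyte markers to 1173 and 308.2 CPM. The part of other cell types' markers in the calls of both classes was not tested.

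Neutrophil-like cells had 4 of 15 members lower and 1 higher, where 24% and 5.46% of all genes were, and a median of -0.27 against -0.33. Lower were Xrcc4 (46.6 and 28.5 CPM), Trp53bp1 (12.7 and 6.18 CPM), Mre11a (9.95 and 4.68 CPM) and Rad52 (6.33 and 2.62 CPM), and Xrcc5 was higher (5.43 and 13.9 CPM, from 12 and 74 UMIs). Leaving out the 2 and 1 Top2a cells gave the same 5 calls (23% of all genes lower and 5.48% higher). The mesenchymal markers summed to 921.7 and 196.1 CPM here, the keratinocyte markers to 1699 and 494.8 CPM and the red cell markers to 33.0 and 954.4 CPM, and their part was not tested.

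Over the 8 classes, 15 of the 34 members were called in no class with all cells. Those were Atm, Atr, Prkdc, Xrcc6, Nhej1, Rif1, Rad50, Nbn, Rbbp8, Palb2, Mdc1, Rnf8, Rnf168, Chek2 and Xrcc1. Brca1, Bard1, Blm, Fanci and Chek1 were each lower in 3 classes, and Rad54l, Fanca and Exo1 in 2. Each of these 8 is among the 18 members that were higher in dividing cells in every pair. The shares of all genes called in no class or in several are not given here. The counts are therefore not read as particular to the members.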

How the data were processed

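The data were 10x Genomics 3′ v3 libraries, 1 control and 1 irradiated. The authors deposited unnormalized UMI counts for every gene and barcode, produced by Cell Ranger 5 against mm10 per the submitters' processing notes (5.0.1 per the file headers). Totals were 180080740 UMIs over 11369 barcodes and 111753092 over 8302. Barcodes under 500 genes or 1000 UMIs, or over 10% mitochondrial UMIs, were left out. Doublets were removed with Scrublet in scanpy 1.11.5 at an equal score threshold of 0.25, which took 5.57% and 2.17%, against expected rates of 9.10% and 6.64%. This left 8725 and 7034 cells. Cells were clustered together (2000 variable genes without the members and fixed lists, 30 components, 15 neighbours, leidenalg 0.10.2, resolution 1.0, seed 0) into 31 clusters, named from fixed markers. After the clusters were seen, mesenchymal markers were no longer counted as a rival of the pericyte list, since the lineages were taken to share collagen genes. The lists themselves have no gene in common. The unnamed clusters, 841 and 632 cells, were left out of classes.

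UMIs were summed per class and library and scaled to CPM. Ratios carry exact conditional Poisson 95% intervals (scipy 1.17.1, numpy 2.4.6, pandas 2.3.3, Python 3.11.15). A gene was tested against the size rule with at least 20 UMIs over both libraries, and called at 1.5-fold or more when the interval left out equality. The calling code was checked on simulated data. PCR duplicates are removed by UMIs, and intervals cover counting error only. All members are accounted for; in each class those called are named, at least the 8 with the most UMIs, and of the other repair genes the 6 called with the most UMIs, some of which are not reported here. The members and lists were chosen with earlier results of these data known. Promoters came from RefSeq on GRCm38.p6, the assembly of mm10.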

Additional observations from a re-analysis of the deposited data

Results flagged for a closer look

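For 5 members a call was lower in one cell class and higher in another. The share of all genes with such calls is not given here, so the count is not read as particular to the members. The difference between classes was not tested, since each class has 1 library per group. Chek1 was lower in macrophage and monocyte-like cells (log2 ratio of irradiated over control -1.27) and higher in endothelial-like cells (0.69). Xrcc5 was lower in macrophage and monocyte-like cells (-1.38) and higher in neutrophil-like cells (1.35). H2afx was lower in keratinocyte-like cells (-0.62) and higher in T and NK-like cells (0.58). Bard1 was lowest in ratio in Schwann-like cells (-2.07) and highest in T and NK-like cells (1.92). Blm was lower in Schwann-like cells (-1.33) and higher in T and NK-like cells (1.59).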

How the results depend on the processing

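No paired analysis was possible because each group has 1 library. Medians of the list in mesenchymal-like, keratinocyte-like, macrophage and monocyte-like and endothelial-like cells were recomputed under each alternative (doublet calls, a stricter cell filter, thinning to 2000 UMIs, clusters weighted alike, centring, count minimum, resolution 0.5, and other definitions of dividing cells). One value moved beyond its counting error: in keratinocyte-like cells without dividing cells, the median was 0.39 over 22 members when dividing cells were those with at least 2 UMIs of the mitosis or of the DNA synthesis list, against -0.02 over 34 members. The cause was not tested. Of 330 values of single members, 313 stayed within their counting error, 17 moved and 0 changed sign. The settings were not alike. Under thinning, which leaves few UMIs per gene, 13 values moved and 6 stayed. With dividing cells defined by the mitosis or DNA synthesis list, 2 moved and 1 stayed. With clusters weighted alike, 2 moved and 36 stayed. Why the values moved was not tested. Calls that rest on under 30 UMIs in a library, as in the smaller classes, are limited by depth.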
